A study of Mus musculus with 16 samples.

Results

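The regions described here are broad stretches of chromatin called as open in double positive (DP) thymocytes and at no other stage examined. They were chosen by the peak calls themselves: a peak of the DP list qualified if it shared no base with any peak of the double negative (DN), CD4 single positive (SP4) or CD8 single positive (SP8) list and was 200 bp or wider. Of 107110 DP peaks, and 476734 peaks over the 4 lists, 1210 met the rule, and they are called broad DP-only peaks below. The data are ATAC-seq, in which the Tn5 transposase cuts and tags accessible DNA, from thymocytes of wild type C57BL/6J mice at 9 weeks old. Cells of the 4 stages were flow-sorted from the thymus of 4 mice, giving 16 libraries, with no treatment in any group. DN cells lacked CD4, CD8 and CD3, DP cells carried both CD4 and CD8, and SP4 and SP8 cells carried CD3 and 1 coreceptor, with cells of other lineages removed by marker at each stage. Each stage is represented by 1 peak list called on the pooled reads of its 4 mice, so no spread between mice can be given and no comparison was tested. Intervals beside shares are 95% Wilson intervals and cover counting error only.

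DP thymocytes make up most of the thymus. They carry a rearranged T cell receptor (TCR) beta chain, rearrange the TCR alpha locus with the Rag1 and Rag2 recombinase, and are then selected on self peptide and MHC or die. Among the transcription factors known for this stage are the E proteins HEB and E2A, which bind E-box sequences. Nuclear receptors form another family and bind AGGTCA half-sites. Peaks at the promoters of DP genes were listed as a check of the label. A DP peak lay within 1 kb of a transcription start site (TSS) of 9 of 9 DP markers (Cd4, Cd8a, Cd8b1, Rag1, Rag2, Dntt, Ptcra, Cd3e and Tcf12). The same held for 9 of 9 in DN, 9 of 9 in SP8 and 8 of 9 in SP4 cells, where Dntt had none, so these calls do not identify the sorted population. By fold enrichment, the highest such peak ranked at percentile 88.9 of the DP list for Rag1, 91.2 for Rag2 and 92.3 for Ptcra, but at 7.02 for Dntt. Of the coreceptor promoters, only that of Cd4 ranked highest in DP cells. It was at percentile 38.2 in DP and 37.2 in DN cells, and lower in SP4 and SP8 cells. Cd8a was at 56.1 in DP against 71.4 in DN and 70.7 in SP8 cells, and Cd8b1 at 87.7 in DP against 96.3 in DN cells.

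Sequence set the broad DP-only peaks apart from the other DP peaks. In the 200 bp around the summit, the nuclear receptor half-site preceded by T (TAGGTCA on either strand, called the half-site below) occurred in 184 of 1210 members, or 15.2% (13.3 to 17.3), and in 1.68% of the 58637 other DP peaks of 200 bp or more, a 9.03-fold ratio. The size of the difference depended on the window: over whole peaks, which are wider among the other DP peaks, the shares were 17.2% and 3.53%. The share was higher in the members on 19 of 19 autosomes. Windows of the same length held the half-site in 0.967% of broad DN-only, 1.39% of broad SP4-only and 2.05% of broad SP8-only peaks, and DP-only peaks under 200 bp held it in 4.79%. The E-box (CAGCTG or CAGGTG on either strand) occurred in 54.1% (51.3 to 56.9) of members and 40.7% of other DP peaks, and both motifs together in 6.78% and 0.665%. The letters of the half-site and the E-box can share 2 bases where they adjoin.

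The windows below are the 5 members with the highest q-values among those with a half-site, and are shown because they carry the sequence found most unevenly between members and other peaks. They were chosen after their values were seen. Each is 200 bases of mm10 on the plus strand, read from the RefSeq assembly GRCm38.p6 with the summit after base 100, and capitals mark half-site and E-box matches.
Pmvk member, chr3:89452146-89452345: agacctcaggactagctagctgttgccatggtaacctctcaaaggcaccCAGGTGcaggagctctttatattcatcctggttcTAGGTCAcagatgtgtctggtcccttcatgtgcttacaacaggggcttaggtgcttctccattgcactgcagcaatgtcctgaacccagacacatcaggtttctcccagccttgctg
Pecam1 member, chr11:106671883-106672082: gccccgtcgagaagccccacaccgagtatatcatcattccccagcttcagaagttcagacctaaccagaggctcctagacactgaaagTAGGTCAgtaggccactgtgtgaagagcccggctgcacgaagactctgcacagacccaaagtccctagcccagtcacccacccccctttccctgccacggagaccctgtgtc
Gm525 member, chr11:89082689-89082888: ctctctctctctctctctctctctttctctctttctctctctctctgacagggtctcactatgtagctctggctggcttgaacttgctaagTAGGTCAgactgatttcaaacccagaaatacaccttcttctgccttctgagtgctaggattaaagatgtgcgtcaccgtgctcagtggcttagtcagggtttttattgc
Nsg2 member, chr11:32068834-32069033: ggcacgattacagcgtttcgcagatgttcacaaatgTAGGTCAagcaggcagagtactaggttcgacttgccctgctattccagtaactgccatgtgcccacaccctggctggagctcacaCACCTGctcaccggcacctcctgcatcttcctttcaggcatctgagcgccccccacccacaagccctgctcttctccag
Nr4a3 member, chr4:48073465-48073664: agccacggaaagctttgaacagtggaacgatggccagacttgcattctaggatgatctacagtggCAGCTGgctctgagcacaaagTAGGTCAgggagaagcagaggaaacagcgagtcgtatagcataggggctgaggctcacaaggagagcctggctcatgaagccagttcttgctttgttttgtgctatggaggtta
In 4 of these 5 windows the half-site began within 17 bases before the summit. In the Nsg2 window it began 64 bases before it, and an E-box began 21 bases after it. Pmvk, Nsg2 and Nr4a3 windows also held an E-box.

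The half-site share was larger in higher members and differed little with height among other DP peaks. When members were divided into 4 bins at the quartiles of their fold enrichment, the reads at the summit over the local background, the share was 5.30% in the lowest bin, 11.4% and 14.3% in the middle bins, and 29.5% (90 of 305) in the highest. Other DP peaks in the same bins of fold enrichment held the half-site in 1.57%, 1.497%, 1.597% and 1.73% of cases. The highest bin had no upper limit. It held 40461 of the other DP peaks, which reached 75.1-fold, whereas members reached 28.0-fold. Of the 100 members with the highest q-values, 28 held a half-site (20.1 to 37.5%) and 68 an E-box (58.3 to 76.3%). The E-box share went from 41.7% to 63.9% over the 4 bins of members, against 36.7% to 41.3% in other DP peaks.

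Half-site matches were concentrated at the summit. In the members there were 1.11 matches per kb in the 50 bp before the summit and 0.826 in the 50 bp after it, falling to 0.182 per kb at 150 to 200 bp before it. In other DP peaks the density was 0.0904 per kb in the 50 bp before the summit and 0.0890 per kb at 150 to 200 bp, so no concentration at the summit was seen. E-box matches were denser near the summit in both sets, at 5.06 per kb in the 50 bp after it in members and 3.38 in other DP peaks.

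**Figure D1:**
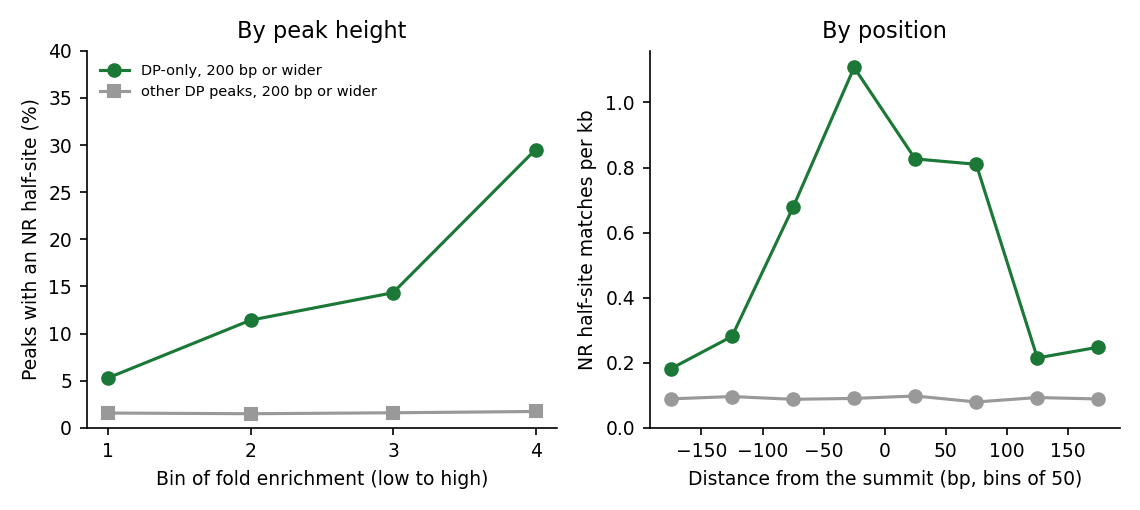
Half-site matches in broad DP-only peaks (green) and other DP peaks of 200 bp or more (grey). Left, share of peaks with a match in the 200 bp around the summit (%) in 4 bins of fold enrichment set by the quartiles of the members; right, matches per kb in 50 bp bins by distance from the summit (bp). Among members the share climbs from 5.30% to 29.5% and the matches crowd the summit, whereas the grey lines stay at 1.497% to 1.73% of peaks and 0.0795 to 0.0979 matches per kb.

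The bases around the half-site also differed between the sets. Read along the motif's own strand, the third and second bases before TAGGTCA were A or T in 88.7% and 90.2% of the 204 matches in members, against 64.4% and 65.2% of the 1009 matches in other DP peaks. The base directly before it was C or G in most member matches, with A or T in 14.7%. The form with T as the first base stood out: TAGGTCA occurred in 15.2% of members, against 3.06% for AAGGTCA, 4.96% for CAGGTCA and 5.12% for GAGGTCA. In other DP peaks the 4 forms were found in 1.68% to 3.06% of windows. The forms without a first T were found in 1.62% to 2.75% of broad DN-only and 1.54% to 4.66% of broad SP4-only peaks. In broad SP8-only peaks they were found in 3.61% to 5.47%. AAGGTCA was more frequent in broad SP4-only (4.66%) and broad SP8-only peaks (4.10%) than in members. Of the member matches, 17.6% lay in soft-masked repeats, close to the 17.8% of all bases of the member windows that were soft-masked.

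Several other motifs were less frequent in members than in other DP peaks. The RUNX sequence (TGTGGTT) was found in 3.97% of members and 9.18% of other DP peaks, and the EGR sequence (GNGGGCG) in 6.28% and 19.2%, each lower in members on 19 of 19 autosomes. The CTCF core (AGGNGGC) was found in 18.3% and 26.2%. For EGR and CTCF the broad single-stage sets of the other stages were low too, with EGR in 7.49% of such peaks for DN, 7.62% for SP8 and 3.798% for SP4 cells, and CTCF in 18.3%, 14.6% and 9.52%. The TCF/LEF sequence (CTTTGA) was found in 16.6% of members and 14.6% of other DP peaks. The letters AGATAA, bound by GATA factors, were found in 5.95% and 6.17%. Broad SP4-only peaks held TCF/LEF in 28.4% and GATA in 17.3% of windows, and an E-box in only 18.3%. Broad DN-only peaks held an E-box about as often as the members, at 52.8%, and RUNX in 19.7%. RUNX was found in 12.3% of broad SP8-only peaks, but in 5.72% of broad SP4-only peaks and 4.85% of DP-only peaks under 200 bp.

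**Figure D2:**
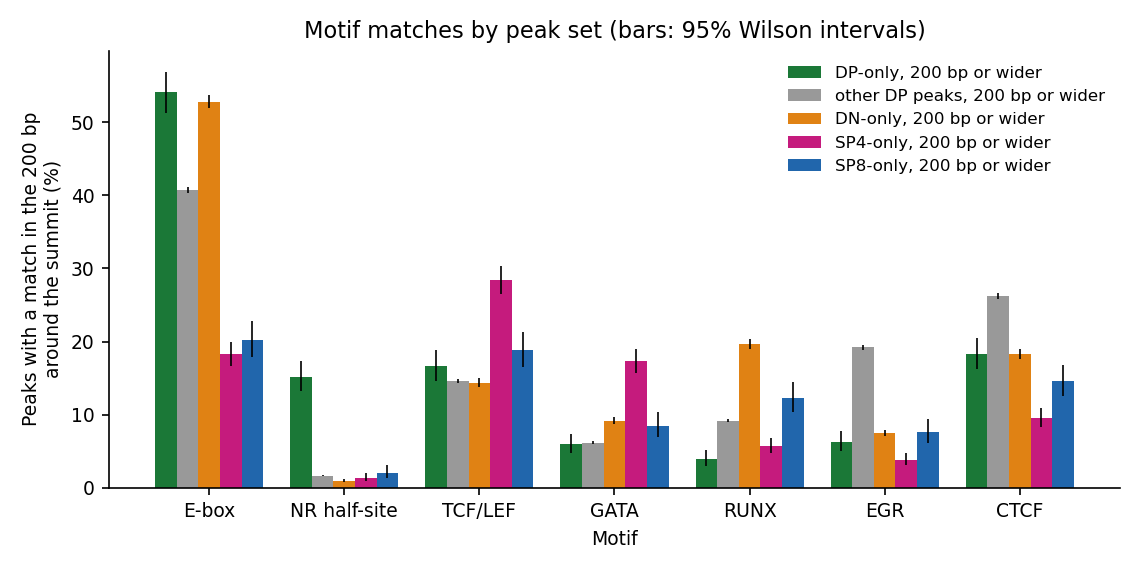
Share of peaks with a motif match in the 200 bp around the summit (%), for 7 motifs and 5 sets of peaks of 200 bp or more, with 95% Wilson intervals as error bars. The half-site bar (NR half-site, TAGGTCA only) of the DP-only set stands at 15.2%, with the other sets at 0.967% to 2.05%. The E-box is frequent in DP-only and DN-only peaks and low in SP4-only and SP8-only peaks.

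Among DP peaks of 200 bp or more, 2.02% (1210 of 59847) were found at this stage alone. This share was 14.1% at the DN stage, 3.2% for SP4 and 1.64% for SP8, and of all DP peaks, narrow ones included, 8.98% (9619) shared no base with another stage. These shares are what the rule measures and describe the lists only. At the width threshold, 16 DP-only peaks were exactly 200 bp wide and 25 were 1 bp narrower. Members of 200 to 209 bp had a median fold enrichment of 3.78, and the 241 DP-only peaks that missed the rule by 1 to 10 bp one of 3.97. The median width was 247 bp, 299 were at least 300 bp wide, and 28 were at least 500 bp wide.

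The members were lower peaks than the rest, given as a description because height and peak calling, which the rule uses, are not independent. The number of reads over each summit and the local background were recovered from the deposited fold and p-values. The members had a median of 27 reads at the summit (quartiles 18 and 47.75, maximum 424), against 76 in other DP peaks of 200 bp or more. The median local background was 3.97 and 7.15 reads, and the median fold enrichment 4.44 and 9.11. The caller accepted no DP peak with under 10 reads at the summit. Relative to the smallest number of reads that would have been accepted at its own background, the median member had 2.0 times as many, 94 members had at least 5 times as many, and 276 (22.8%) had under 1.5 times as many.

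**Figure D3:**
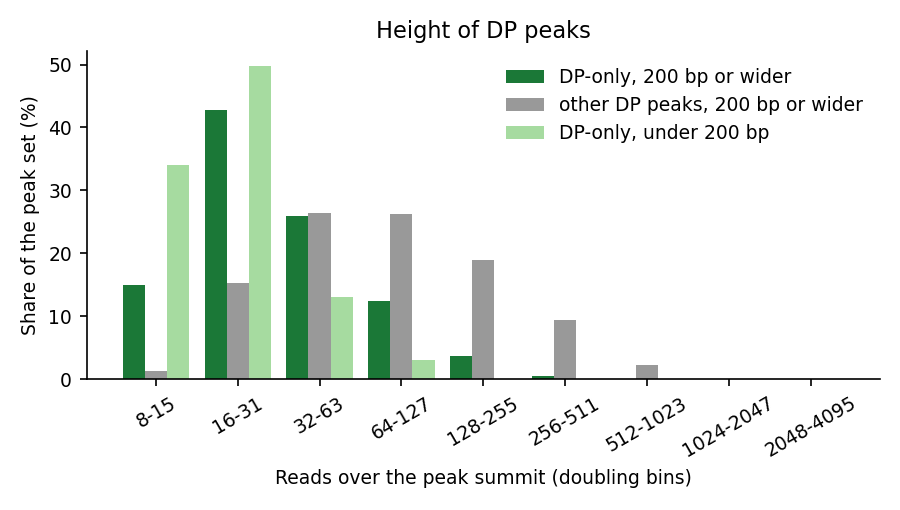
Share of each peak set (%) by the number of reads over the summit, in doubling bins, for broad DP-only peaks (dark green), other DP peaks of 200 bp or more (grey) and DP-only peaks under 200 bp (light green). Most members fall between 16 and 63 reads (42.7% and 25.9% in those 2 bins), and 5 reach 256 or more.

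DP-only means that no peak was called elsewhere, and many members lay beside open chromatin of another stage. The median gap to the nearest peak of another stage was 1462 bp, with 84 members (6.94%) within 100 bp, 342 (28.3%) within 500 bp and 955 within 5 kb. Only 16 members had none within 50 kb. The nearest such peak was a DN peak for 574 members (47.4%), an SP4 peak for 360 and an SP8 peak for 276, and the DN list was the longest. Members within 500 bp of another stage's peak had a median local background of 6.10 reads and fold enrichment of 3.74, against 3.46 reads and 4.82 for the rest. The half-site was found in 10.8% of the former and 16.9% of the latter, and in 18.8% of the 255 members more than 5 kb away.

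The members at the top of the list were strong peaks. The 12 with the highest q-values each had between 162 and 424 reads at the summit. The highest was a peak of 809 bp, also the widest member, 1816 bp upstream of the TSS of Pmvk, the phosphomevalonate kinase of isoprenoid synthesis (chr3:89451917-89452725), with 346 reads over a background of 19.9 and a fold enrichment of 16.6. The next was intergenic, 79324 bp upstream of Rasgrp1, which activates Ras downstream of the TCR, with 424 reads over 45.3 (chr2:117422325-117422630). The third was in an intron of Pecam1, encoding the adhesion molecule CD31, with 407 reads over 41.6. These 3 peaks had the most reads but also a raised local background, and the largest fold enrichments among the 12 were found elsewhere.

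Chst10, a carbohydrate sulfotransferase gene, held a 740 bp intronic member with 194 reads and a fold enrichment of 28.0. An intron of Ust, encoding another sulfotransferase, held one with 194 reads and 26.9-fold enrichment. Both peaks lay over 6 kb from any peak of another stage, with the nearest at 6025 bp and 10912 bp. Members near Enc1, in Snx25 (a sorting nexin gene) and near Fdx1 (ferredoxin) had fold enrichments of 23.9, 23.4 and 21.5. Those near Nsg2 and Wdr60 had 19.8 and 18.5, and that in Gm525 had 9.77 with 316 reads. The twelfth, in an intron of Nr4a3, an orphan nuclear receptor induced by TCR signalling, had 205 reads and 14.1-fold enrichment, 22116 bp downstream of the TSS and 1067 bp from the nearest peak of another stage. The second widest member, 741 bp in an intron of Nt5c2, a nucleotidase gene, was broad but low, with 39 reads. Of the 12 members, 5 held a half-site and 9 an E-box. None of the 12 lay in a promoter or an exon.

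Broad DP-only peaks were mostly distal. Promoters (200 bp upstream of a TSS) were touched by 64 members, or 5.29% (4.16 to 6.70), against 26.5% of other DP peaks of 200 bp or more. Introns held 53.2% (50.4 to 56.0) of members against 37.6%, and exons 11.5% against 13.3%. Intergenic sequence held 363 of 1210 members, against 22.6% of other DP peaks. Of the 139 exonic members, 54 touched coding sequence and 37 an untranslated region. The median distance to the TSS of any transcript was 7282.5 bp in members and 2898 bp in other DP peaks, and to a TSS of a protein-coding or TCR segment gene 16608 and 7196 bp. The latter was longer, and the promoter share lower, in members on 19 of 19 autosomes. Over 100 kb from such a TSS lay 13.3% of members and 6.55% of other DP peaks. Base composition also differed: member windows held a mean of 3.19 CpG dinucleotides and a median GC content of 51%, other DP windows 6.83 and 53.5%, and its part in the motif shares was not tested.

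**Figure D4:**
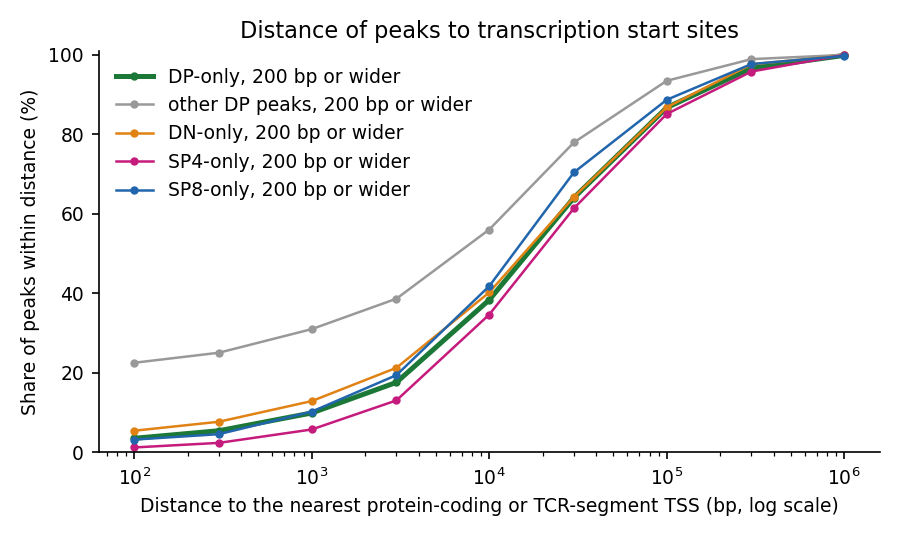
Cumulative share of peaks (%) by distance to the nearest TSS of a protein-coding or TCR segment gene (bp, log scale), for peaks of 200 bp or more. Within 1 kb lie 9.92% of broad DP-only peaks and 31.0% of other DP peaks; the broad single-stage sets of the other stages run close to the DP-only line, at 5.77% to 12.9% within 1 kb.

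Among the 64 promoter members, 3 were chosen as examples after their values were seen. A peak of 386 bp at a TSS of Runx3, the factor of the CD8 lineage, had 90 reads and a fold enrichment of 4.38. One at the TSS of H2-K1, a class I MHC gene, had 70 reads and 5.08. One at a TSS of Ntrk3, a neurotrophin receptor gene, had 258 reads over a background of 40.2, the second highest q-value among promoter members. All 3 lay close to peaks of every other stage. The nearest DN, SP4 and SP8 peaks were 239, 239 and 250 bp from the Runx3 member. They were 250, 322 and 291 bp from that of H2-K1, and 350, 686 and 674 bp from that of Ntrk3.

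The members were spread over 1002 nearest genes. Of these, 155 were nearest to at least 2 members and 34 to at least 3. Counting genes that contain a member or are nearest to one by TSS, 1076 of 21006 protein-coding and TCR segment genes (5.12%) were reached, and 9.44% had a member within the gene or 50 kb of it. The gene with the most members was Slc7a11, encoding the cystine transporter subunit xCT: 6 of its 26 nearest DP peaks of 200 bp or more were members. They had fold enrichments of 3.25 to 22.1 and lay from 443 bp to 379334 bp from its TSS. The strongest, 150845 bp upstream (chr3:50594459-50595089), was 631 bp wide with 133 reads.

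Dact1, encoding a regulator of Wnt signalling, had 5 of 9 DP peaks as members, all upstream of its TSS by 35065 to 75885 bp. Satb1, encoding a genome organizer highly expressed in thymocytes, had 5 of 59, with fold enrichments of 2.50 to 4.49. Hs6st1, a heparan sulfate sulfotransferase gene, and Trpm1, a cation channel gene, also had 5 each, of 30 and 23 DP peaks, and Svil, encoding the actin-binding protein supervillin, 5 of 43. The share of DP peaks that were members thus ranged from 8.47% at Satb1 to 55.6% at Dact1 among these genes. There were 6 genes with 4 members each. Those with the highest q-values were B230118H07Rik, Ppm1h (a protein phosphatase gene), Slit3 (a secreted guidance ligand gene) and Sall3 (a zinc finger gene), of 20, 42, 14 and 55 DP peaks. Mad1l1 and L3mbtl3 tied with them, at 4 of 38 and 4 of 17.

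The 4 members assigned to B230118H07Rik lay around the recombinase genes Rag1 and Rag2, a point noticed after their values were seen. They were found 13269, 96778, 123106 and 186773 bp from the Rag1 TSS, and the closest was 11157 bp from the Rag2 TSS with 43 reads and 4.54-fold enrichment. The strongest, at chr2:101552326-101552723, had 203 reads over a background of 28.9. It lay in an intron of an annotated transcript but in no protein-coding or TCR segment gene, 23402 bp from the TSS of B230118H07Rik. The Rag2 TSS was 71995 bp away and the nearest peak of another stage 501 bp away. Its window held 3 E-boxes and no half-site. The windows of the other Rag-neighbourhood members held neither motif. In the TCR loci there were 3 members, near Trav13-4-dv7, Trav19 and Trbc2. That at the Trav19 variable segment had 110 reads and a fold enrichment of 26.0, with no peak of another stage within 13 kb. Its local background, 3.28, was the lowest of the list, a value shared by 447 members (36.9%). Trav segments have close copies in the mouse genome, and only uniquely mapped reads were used. The other 2 had fold enrichments of 4.75 and 2.67. The windows at the strongest Rag member and at Trav19 are printed in the same form, to show their E-boxes.
Trav19 member, chr14:53845740-53845939: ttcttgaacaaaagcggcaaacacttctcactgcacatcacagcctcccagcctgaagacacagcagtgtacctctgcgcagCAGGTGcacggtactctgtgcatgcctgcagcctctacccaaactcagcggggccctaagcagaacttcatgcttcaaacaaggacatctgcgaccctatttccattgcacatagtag
Rag neighbourhood member, chr2:101552384-101552583: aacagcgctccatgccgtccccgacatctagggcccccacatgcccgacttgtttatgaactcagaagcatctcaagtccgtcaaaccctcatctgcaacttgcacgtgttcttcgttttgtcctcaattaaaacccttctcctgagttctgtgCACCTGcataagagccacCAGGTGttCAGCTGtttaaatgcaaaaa

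Lists of T cell genes were examined next. A member lay in or nearest to 26 of 115 listed genes (22.6%, 15.9 to 31.1), against 5.12% of all genes and 2 of 49 genes of other cell types (Itgam and Ly75). T cell genes had more DP peaks of any kind near them, 11.7 of 200 bp or more per listed gene, against 4.05 per gene with such a peak genome-wide. As a share of those peaks, members made up 2.89% (2.12 to 3.92), against 2.02% of all DP peaks of 200 bp or more. The genes of other cell types had 2.41 such peaks each, of which 1.69% (0.466 to 5.97) were members, an interval that overlaps that of the T cell genes. Counted instead by a member within the gene or 50 kb of it, 24 of 115 T cell genes (20.9%) were reached, against 9.44% of all genes.

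Regulators of the DP stage had the largest count, with a member at 12 of 14 genes (Tcf12, Tcf7, Lef1, Bcl6, Ikzf1, Satb1, Ets1, Myb, Bcl11b, Gata3, Runx1 and Tox) and 21 of 419 nearest DP peaks (5.01%, 3.301 to 7.54). Within the gene or 50 kb of it, the count was 8 of 14, against 9.44% of all genes. By the first count 5.12% of all genes were reached, and 2.02% of all DP peaks of 200 bp or more were members. These regulators had 29.9 such peaks each, against 11.7 per gene over all T cell lists. Satb1 held 5 of the 21 members and Bcl11b 3, which the interval treats as independent. The Tcf7 member lay inside that gene but nearest to the TSS of Skp1a, so it is not among the 21. The best members of the 12 genes by q-value ranged in fold enrichment from 1.83 (Tcf7) to 12.8 (Runx1). The Runx1 member was 302002 bp upstream of its TSS, with 80 reads. That of Myb, which supports DP survival, was 42846 bp upstream with 7.84-fold enrichment, and that of Lef1 110453 bp upstream with 6.22-fold. Tox and Bcl6, the former needed for the CD4 lineage, had 5.51 and 5.15, Tcf12 (encoding HEB) 4.68, Satb1 4.49, Ets1 4.44 and Gata3 4.15. Ikzf1 and Bcl11b stood at 2.84 and 2.05, over local backgrounds of 17.0 and 30.2 reads. The Satb1 member touched the promoter of another transcript, 49381 bp upstream of the Satb1 TSS, and the members of Ets1 and Lef1 were intergenic. The best members of Tox, Bcl11b, Tcf7 and Myb lay 86, 115, 162 and 211 bp from a peak of another stage. Those of the other genes lay 948 bp (Runx1) to 11354 bp (Ets1) away. Further members of these genes lay 28 bp (Runx1) to 9194 bp (Gata3) away, with one of Bcl6 at 46 bp and one of Satb1 at 70 bp.

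Genes of the coreceptors and TCR signalling had a member at 4 of 15. Besides Rasgrp1, these were Ptprc, the CD45 phosphatase gene (11.8-fold at 302086 bp from the TSS, and a second member of 21.3-fold with 128 reads at 24070 bp upstream), Cd5 (4.48-fold) and Themis, a selection factor (2.95-fold). Selection response genes had 3 of 12, with Nr4a3, Id3 at 4.21-fold and 67 reads, and Cd28 at 4.21-fold and 17 reads. Bcl2l11, encoding the pro-apoptotic protein Bim, was 1 of 10 survival genes, at 3.90-fold. As a share of the nearest DP peaks of 200 bp or more, members made up 3.27% (1.40 to 7.42) for the coreceptor and TCR list, 2.42% (0.826 to 6.87) for selection response and 1.15% (0.203 to 6.23) for survival genes, intervals that hold the 2.02% of all such peaks. No gene was counted for recombination (0 of 10), CD1d and SLAM genes (0 of 10) or DN genes (0 of 14), against 5.12% of all genes. That recombination count leaves out the Rag members above, whose nearest TSS is that of B230118H07Rik. As peak shares these were 0 of 24 (0 to 13.8%), 0 of 95 (0 to 3.89%) and 0 of 110 (0 to 3.37%). These intervals also hold 2.02%. Within the gene or 50 kb of it, the counts were 2 of 10, 1 of 10 and 1 of 14, against 9.44% of all genes.

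Genes of later stages were also reached. Mature SP genes had 4 of 12: Ccr7, Klf2, Runx3 and Ifngr1, with 7 of 107 nearest DP peaks (6.54%, 3.20 to 12.9). Over all genes 5.12% were reached, and 2.02% of all DP peaks of 200 bp or more were members. Klf2, Runx3 and Ifngr1 held 2 of the 7 each, which the interval treats as independent. The members of Ccr7, Klf2 and Runx3 lay 239 to 826 bp from a peak of another stage, and those of Ifngr1 4929 and 5456 bp. The member 20350 bp downstream of the TSS of Ccr7, the chemokine receptor of medullary entry, had 164 reads and 8.21-fold enrichment. One near Klf2, which drives egress from the thymus, was 520 bp wide with 88 reads and 7.58-fold enrichment, inside an intron of Eps15l1. Runx3 had a best member of 9.79-fold and Ifngr1 one of 4.98-fold. Ccr7 and Klf2 were the 2 of 10 migration genes reached. Of the SOX, PBX and PKNOX factors, Sox4 and Sox5 were reached (2 of 12, and 0 of 12 within the gene or 50 kb), at 3.41-fold and 3.74-fold. The peak shares of these lists, 2.61% (0.891 to 7.39) for migration and 1.35% (0.371 to 4.79) for SOX, PBX and PKNOX factors, also had intervals holding 2.02%.

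The genes for the DP coreceptors had no strong member beside them, in a comparison chosen after the values were seen. The nearest to the TSS of Cd8b1 was 9155 bp away with 33 reads and 3.62-fold enrichment, and the same peak was 59794 bp from the Cd8a TSS. The nearest to Cd4 was 2589509 bp away, to Dntt 653810 bp and to Ptcra, the pre-TCR alpha chain gene, 465496 bp. Bcl2l1, the gene of the survival protein Bcl-xL, had no member nearer than 1969681 bp. Membership rests on peak calls alone. By signal, the study placed its peak at the Cd4 enhancer E4p in a DP-specific cluster, which is a different measure.

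Along the chromosomes the members were sparse, with weak clustering. The share of DP peaks of 200 bp or more that were members ran from 1.67% on chromosome 4 to 2.51% on chromosome 1, and their density from 0.336 per Mb on chromosome 14 to 0.778 on chromosome 11. The median gap from a member to the nearest other member was 229898 bp. At most 50 kb apart, 265 members (21.9%, 19.7 to 24.3) formed 123 chains, of which 108 were pairs and 12 were triples. Chain shares of the broad sets of other stages (64.8% DN, 26.5% SP4 and 22.0% SP8) rise with the size of the set and are not compared.

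Neighbours of members were more often members than neighbours of other DP peaks. Within 20 kb of a member summit, 4.40% of the DP peaks of 200 bp or more were themselves members, against 2.01% around other DP peaks, a ratio of 2.20. The ratio was 1.72 within 50 kb (3.49% and 2.03%, higher around members on 17 of 19 autosomes), and 1.18 within 1000 kb. The number of DP peaks of 200 bp or more around the 2 sets was nearly the same within 50 kb, 7.38 and 7.23. Broad peaks of the other stages clustered to a similar degree: at 50 kb the ratio was 1.84 for DN-only, 1.88 for SP4-only and 1.61 for SP8-only peaks. Narrow DP-only peaks also lay nearer to members, as 10.8% of DP peaks of any width within 10 kb, against 7.38% around other peaks.

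**Figure D5:**
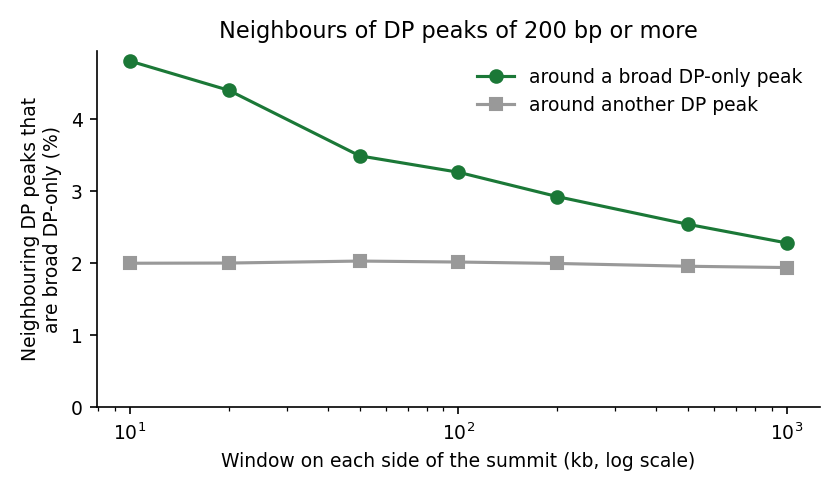
Share of neighbouring DP peaks of 200 bp or more that are broad DP-only peaks (%), by window on each side of the summit (kb, log scale), around members (green) and around other DP peaks (grey). The lines lie furthest apart at 10 kb, 4.81% against 2.003%, and approach each other at 1000 kb, 2.28% against 1.94%.

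The longest chain was 5 members over 41338 bp upstream of Dact1 (chr12:71233482-71274819), where 8 DP peaks but 1 DN, 1 SP4 and 1 SP8 peak were called. Its members had fold enrichments of 3.86, 12.2, 4.91, 8.60 and 5.15 in order along the chromosome. All but the last lay inside another gene, 2700049A03Rik. Chains of 4 members lay at L3mbtl3, a chromatin reader gene, over 55471 bp, and at Svil over 121603 bp, among 15 and 29 DP peaks. In these chains the other stages also had many peaks, 10 to 11 at L3mbtl3 and 16 to 23 at Svil. Chains of 3 lay at Pecam1 (16173 bp), at Trpm1 (27318 bp) and within Nfatc3, encoding a calcineurin-dependent factor (29597 bp). The last member in Nfatc3 was nearest to the TSS of Esrp2. At Pecam1 there were 7 DP peaks against 5 DN, 3 SP4 and 2 SP8 peaks, and the 3 members had 407, 70 and 24 reads.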

How the data were processed

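ATAC-seq libraries of 4 mice at each of 4 stages were paired-end sequenced. Per the study's methods, the authors used BWA to align reads to mm10 and Picard to drop duplicates, retained properly paired reads with 1 mapping position, and down-sampled every library to the median depth. They pooled the 4 mice of a stage and called narrow peaks with MACS2, each read end being smoothed over 100 bp around the cut; blacklisted regions were removed. Down-sampling levels depth between libraries, and pooling leaves 1 list per stage. The deposited lists hold the start, end and summit offset of each peak, a score written by the caller, the fold enrichment (a ratio to the local background), and −log10 p-values and q-values (q of at most 0.05).

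Overlap, distance, chains and motif searches were computed with Python 3.11.15, numpy 2.4.6, pandas 2.3.3 and pysam 0.24.0, and were tested on simulated data. The reads at the summit and the local background were solved from fold and p, a step chosen after the data were seen; they came out as whole reads, within 0.002 in log10 p, for 99.9972% of DP peaks and for 1210 of 1210 members. Transcripts were those of GENCODE M21 and RefSeq on the autosomes; the nearest gene was taken among protein-coding and TCR segment genes, and the order of classes was promoter, exon, intron, intergenic. Distances run from the peak's edge. Motifs were exact letters on both strands in the 200 bp around the summit.

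Named were the 12 members with the highest q-values, the 3 widest, the 10 genes with the most members, the 6 largest chains and every T cell list gene with a member. One gene of the lists is not reported here. Members, lists and rules were chosen with earlier results of these data known. The depth of single libraries cannot be read from these lists. Alternatives covered the overlap, width and q thresholds, annotation, chain distance and sequence window.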

Additional observations from a re-analysis of the deposited data

How the results depend on the processing

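The number of members stayed within 1.5 times of 1210 when peaks of another stage within 100 bp or 500 bp also removed a peak (1126 and 868) or q was held to 0.001 (1143). It became 3039 at a width of at least 150 bp, 299 at 300 bp, and 2041 when each list was held to its 104411 highest peaks by q-value, which shortens the DN list most. The promoter share was 9.34% with promoters of 1000 bp, 2.31% by the summit alone and 3.39% with protein-coding transcripts only. By protein-coding transcripts the exon share was 7.93%, the intron share 46.9% and the median TSS distance 21208 bp, and by the summit the intron share was 56.5%. The share in chains was 12.3% at 20 kb, 33.2% at 100 kb, and 19.01% without members within 500 bp of another stage. The median percentile of the members in the DP list was 36.1 by fold enrichment and 33.2 by q-value. The E-box share was 62.1% over whole peaks and 38.8% in 100 bp, against 59.3% and 27.03% of other DP peaks. The half-site share was 17.2% over whole peaks and 8.76% in 100 bp, against 3.53% and 0.880% of other DP peaks. Members with q of at most 1e-10, an alternative chosen after seeing the data, held an E-box in 63.1% and a half-site in 22.2%. No paired analysis was possible because the mice of a stage are pooled in its list, and for the same reason no mouse could be left out in turn. A region missing from a list may still hold reads below the caller's threshold, and the lists do not show how far mice differed.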
